A study of Homo sapiens with 3 samples.

Results

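The 9 genes SQLE, LSS, CYP51A1, TM7SF2, MSMO1, NSDHL, HSD17B7, EBP and DHCR7 encode enzymes that turn squalene into cholesterol. They were found by their symbols and make up 9 of the 20344 genes listed in each deposited file. They were grouped for their place in the pathway with their values in these libraries known, so what follows describes them and tests nothing.

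The study measured messenger RNA by sequencing in A375, a human melanoma line with an activating BRAF mutation, and in a line called A375-VR. The series title concerns propranolol, a blocker of beta-adrenergic receptors, and resistance to the BRAF inhibitor vemurafenib. Of 3 samples, the 2 used here are titled A375-VR, Prop and A375, Prop, with 1 library each, and are called the A375-VR library and the A375 library. The remaining sample, A375-VR, DMSO by title, was not analysed here. The labels contradict each other: for every sample the RNA protocol names A375-VR cells that received DMSO or 20 µM propranolol over 24 h, whereas the second library has A375 in its title and as its cell line. Cell line, treatment and culture therefore cannot be told apart as sources of a difference between the libraries. The labels do not say how A375-VR was derived, or whether it is 1 clone. With 1 library per group no replicate spread exists, no p-value is given, and every interval below covers counting error only.

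Values are FPKM (sequenced fragments, or reads, divided by gene length and by library size), a scale meant for comparing levels of different genes. Such comparisons depend on the gene lengths the authors used, which are not given. The totals worked out from the files were 16438482 in the A375-VR library and 17811339 in the A375 library. Of all genes, 10761 had at least 1 FPKM in a library, and the median of their recovered reads was 621 in the A375-VR library and 605 in the A375 library. Genes of the mitochondrial genome held 8.11% of the A375-VR FPKM sum and 7.87% of the A375 sum. Of 8 melanoma markers, SOX10, MITF and S100B reached 1 FPKM in both libraries, while the pigment cell markers PMEL, MLANA and DCT stayed below 1 and TYR was listed at 0. The melanoma markers summed to 166 FPKM in the A375-VR library and 76.2 in the A375 library, and most of this was SOX10, with 150 FPKM in the A375-VR library and 65.3 in the A375 library. S100B had 12.6 FPKM in the A375-VR library and 3.72 in the A375 library. The markers did not share a direction: MITF had 3.47 FPKM in the A375-VR library and 6.47 in the A375 library, and S100A1 had a fold of 0.241 (0.0253 to 1.16). Of 5 leukocyte markers none reached 1 FPKM, with sums of 0.752 FPKM in the A375-VR library and 0.0595 in the A375 library, and PTPRC was listed at 0 in both. Keratinocyte markers summed to 59.5 FPKM in the A375-VR library, of which KRT10 gave 56.0, and to 47.8 in the A375 library, of which KRT10 gave 44.9. Fibroblast markers summed to 6.72 FPKM in the A375-VR library and 4.80 in the A375 library, and endothelial markers to 2.07 in the A375-VR library and 0.568 in the A375 library. The part of these shifts in the results below was not tested. In bulk RNA, fewer cells of a type and less RNA per cell cannot be told apart.

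Cholesterol is made in the endoplasmic reticulum from squalene, which is first oxidised and folded into lanosterol. Lanosterol then loses its methyl groups and has its double bonds moved or reduced until cholesterol is left. The genes of this pathway are known targets of SREBP2, a transcription factor that is released from the membrane when sterols are scarce and that works with the CCAAT-binding factor NF-Y and with Sp1. The pathway is under study in tumours because dividing cells need sterols for new membranes.

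In the A375-VR library 7 of the 9 genes were higher by 2-fold or more and none was 2-fold lower. This was counted as a difference of at least 1 in log2(FPKM + 1), which 3.14% of all 10761 genes reached upward and 0.613% downward. The difference was at least 2, or 4-fold, for 6 of the 9 and for 0.353% of all genes. The median difference was 2.48 over the 9 genes and 0.10 over all genes. The genes that were apart were MSMO1, DHCR7, SQLE, HSD17B7, LSS, NSDHL and EBP. The other two were CYP51A1, higher by less than this on the log2(FPKM + 1) scale, and TM7SF2. All 9 passed the filter of 1 FPKM, but CYP51A1 did so only through its A375-VR value. The rule that grouped the genes drew on this same comparison, so the counts support nothing further.

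**Figure D1:**
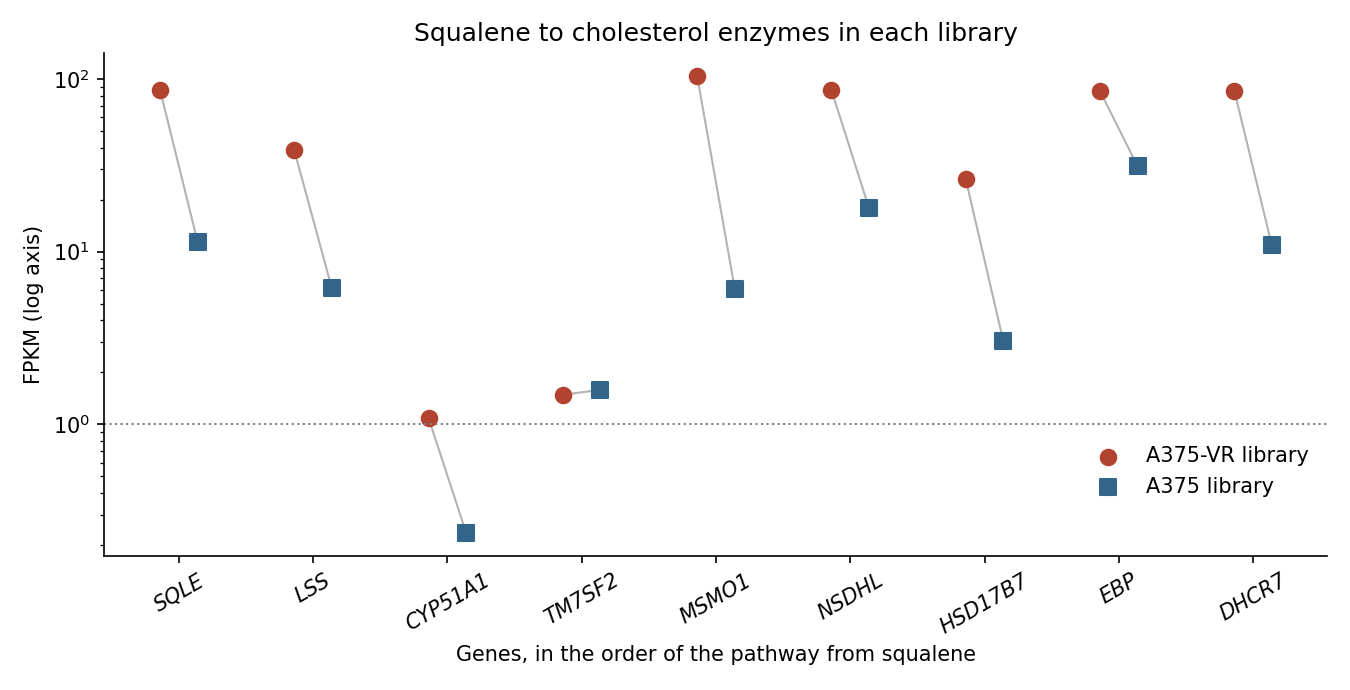
FPKM on a log axis of the 9 enzyme genes in the A375-VR library (circles) and the A375 library (squares), 1 library each, in pathway order; the dotted line marks the filter of 1 FPKM and grey lines join the values of a gene. The 5 genes SQLE, MSMO1, NSDHL, EBP and DHCR7 lie between 84.8 and 104 FPKM in the A375-VR library and between 6.10 and 31.1 in the A375 library, and TM7SF2 lies at 1.48 in the A375-VR library and 1.58 in the A375 library.

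The enzymes that make the first sterol were both higher in the A375-VR library. SQLE (Entrez 6713), squalene monooxygenase, which adds oxygen to squalene and is a point of control of the pathway, had 86.5 FPKM in the A375-VR library and 11.4 in the A375 library. Its fold was 7.60 with an exact Clopper-Pearson interval of 6.72 to 8.62 (95%), and it had rank 10 among all genes by difference. LSS (Entrez 4047), lanosterol synthase, which folds the oxidised squalene into the sterol ring system, had 38.6 FPKM in the A375-VR library and 6.12 in the A375 library. Its fold was 6.30 (5.84 to 6.81), from 4591 recovered reads in the A375-VR library and 789 in the A375 library. The locus of SQLE is chromosome 8, 126010739 to 126034525, plus strand, and that of LSS is chromosome 21, 47608055 to 47648738, minus strand (GRCh37, GENCODE release 44). No exon base of SQLE is shared with another annotated gene, and 7.88% of those of LSS lie opposite genes of the other strand.

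The genes that were not called encode the enzymes that act next, on the lanosterol nucleus. CYP51A1 (Entrez 1595), the cytochrome P450 that removes a methyl group from lanosterol and the target of azole drugs in fungi, was listed at 1.09 FPKM in the A375-VR library and 0.235 in the A375 library. These rest on 64 recovered reads in the A375-VR library and 15 in the A375 library, and the fold of 4.62 has an interval of 2.60 to 8.74. Its difference in log2(FPKM + 1) was 0.76, below the 2-fold line because of the pseudocount, and it was called with a pseudocount of 0.1 (1.82). The level of CYP51A1 is uncertain. Of its annotated exon bases (chromosome 7, 91714301 to 91764117, minus strand), 68.2% also belong to other genes of the same strand and 5.90% to genes of the opposite strand. Stretches of at least 90% identity elsewhere in the genome cover 100% of its transcript. The longest, of 3168 bases on chromosome 3, matches at 94.9% identity. How the authors' counting treated shared or repeated reads is not given in the sources used here, and the part of this in the low level was not tested.

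TM7SF2 (Entrez 7108), a reductase for the double bond left by the demethylase, was the gene without a difference. It had 1.48 FPKM in the A375-VR library and 1.58 in the A375 library, from 83 recovered reads in the A375-VR library and 96 in the A375 library. The fold of 0.937 (0.690 to 1.27) was not detectably different from 1, though the interval leaves out a fold of 2. Its exons (chromosome 11, 64879317 to 64883856, plus strand) share 0.528% of their bases with VPS51 and no long copy of it was found elsewhere in the genome. LBR (Entrez 3930), a protein of the inner nuclear membrane that also has this reductase activity, had 23.8 FPKM in the A375-VR library and 23.2 in the A375 library with a fold of 1.02 (0.964 to 1.09). The level of LBR was thus many times that of TM7SF2 in each library. DHCR7, the third member of this protein family, stood far from both. Its difference was 2.87, while that of LBR was 0.03, turning below 0 under median ratio and trimmed mean scaling.

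The enzymes that strip the remaining methyl groups were higher in the A375-VR library throughout. MSMO1 (Entrez 6307), the methyl sterol oxidase that begins this step, had 104 FPKM in the A375-VR library and 6.10 in the A375 library. Its fold of 17.1 (14.5 to 20.2) was the largest of the 9 and its rank by difference was 4 among all genes. NSDHL (Entrez 50814), the dehydrogenase that then removes the oxidised carbon, had 86.0 FPKM in the A375-VR library and 17.8 in the A375 library, a fold of 4.82 (4.42 to 5.26). HSD17B7 (Entrez 51478), which reduces the ketone so formed and also acts on sex steroids, had 26.3 FPKM in the A375-VR library and 3.02 in the A375 library, a fold of 8.71 (7.65 to 9.96). The folds of these 3 genes, whose enzymes act one after another, had intervals that did not overlap. HSD17B7 is uncertain because 61.5% of its transcript has near-identical stretches on chromosome 10, the longest 525 bases at 98.3% identity. For MSMO1, 20.8% of the transcript has stretches of at least 90% identity at many places on 24 chromosomes, each short, the longest 271 bases. ERG28 (Entrez 11161), known in yeast as the scaffold that holds the enzymes of this step together, had 32.6 FPKM in the A375-VR library and 9.64 in the A375 library, a fold of 3.38 (3.04 to 3.77). MSMO1 lies on chromosome 4 at 166248819 to 166264316, NSDHL on chromosome X at 151999511 to 152038273 and HSD17B7 on chromosome 1 at 162760492 to 162782613, all on the plus strand.

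The last enzymes rearrange the double bonds of the ring. EBP (Entrez 10682), the isomerase that shifts a ring double bond, had 84.8 FPKM in the A375-VR library and 31.1 in the A375 library. Its fold of 2.73 (2.56 to 2.91) was the smallest of the 7 called genes, and it had the highest level of all 9 in the A375 library. Of its exon bases (chromosome X, 48380187 to 48387104, plus strand), 36.4% also belong to another gene of the same strand, so its value is uncertain too. The related genes EBPL and TMEM97, which share its protein fold, were not 2-fold apart, EBPL with 51.6 FPKM in the A375-VR library and 63.8 in the A375 library, and TMEM97 with 24.7 FPKM in the A375-VR library and 18.4 in the A375 library. SC5D (Entrez 6309), a desaturase that acts between EBP and DHCR7, had 21.4 FPKM in the A375-VR library and 6.25 in the A375 library, a fold of 3.42 (3.13 to 3.75). DHCR7 (Entrez 1717), which reduces 7-dehydrocholesterol, the precursor of vitamin D, had 85.5 FPKM in the A375-VR library and 10.8 in the A375 library. Its fold was 7.89 (7.33 to 8.50), its rank by difference was 9, and its locus is chromosome 11, 71139239 to 71163914, minus strand.

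**Figure D2:**
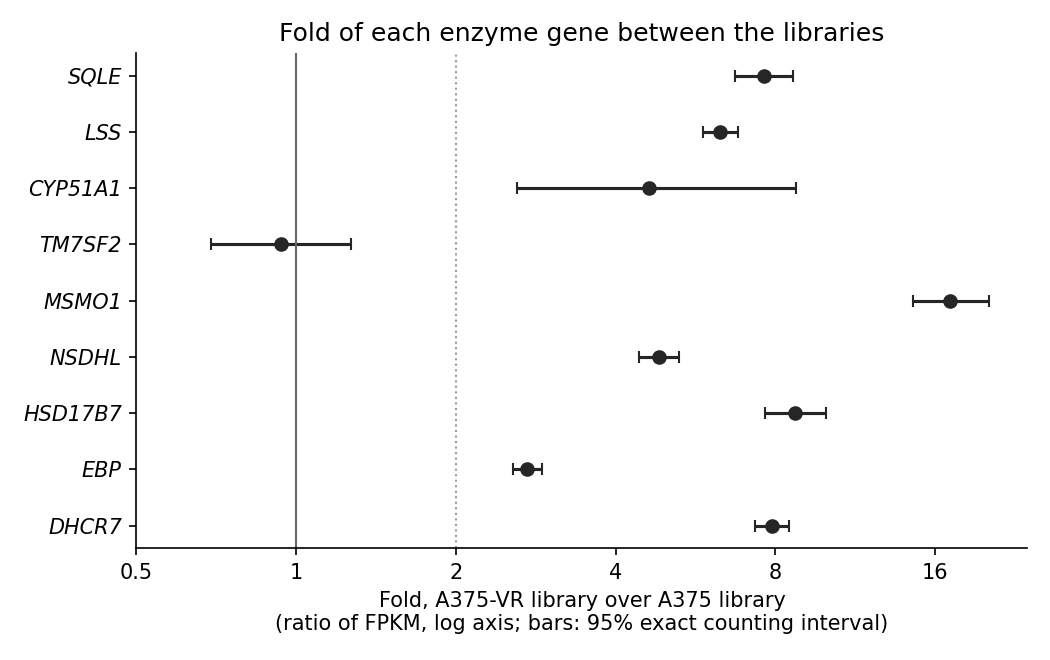
Fold of FPKM, A375-VR library over A375 library, on a log axis for the 9 enzyme genes in pathway order, with 95% exact counting intervals; the solid line marks a fold of 1 and the dotted line a fold of 2. The points run from 0.937 for TM7SF2 to 17.1 for MSMO1, and the interval of CYP51A1, at 2.60 to 8.74, is the widest of those above 2.

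The recovered reads are the smallest whole numbers that give the deposited values, so true counts may be multiples of them and the intervals too wide. For SQLE the annotated exon length of 4305 bp is 3 times the recovered length of 1435 bp, while for LSS, TM7SF2 and NSDHL the recovered and annotated lengths were equal. The remaining genes matched neither way. Their annotated length over the recovered one was 0.734 for EBP, 1.001 for HSD17B7, 1.16 for CYP51A1, 1.65 for DHCR7 and 1.97 for MSMO1. The recovered length of HSD17B7, 4778 bp, lay far above the 1528 bp of its transcript searched for copies. That of SQLE lay below the 2962 bp of its transcript.

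Over all 9 genes the SD of log2 FPKM was 2.60 in the A375-VR library and 2.12 in the A375 library (n = 9 genes). The 7 called genes alone, picked by this same comparison and without CYP51A1, had the opposite order. Among them the highest level was 3.95 times the lowest in the A375-VR library and 10.3 times in the A375 library, and the SD was 0.75 in the A375-VR library and 1.11 in the A375 library (n = 7 genes). Ratios between genes depend on the lengths used, an error that the counting intervals leave out, so the order of levels is uncertain. In the A375-VR library MSMO1 stood highest, 1.20 times SQLE (1.13 to 1.28). SQLE, NSDHL, DHCR7 and EBP followed, and each could not be told from the next by counting error, with ratios between neighbours of 1.01. EBP in turn stood 2.20 times above LSS (2.10 to 2.30), followed by HSD17B7, with TM7SF2 and CYP51A1 far below. TM7SF2 and CYP51A1 could not be told apart in this library, with a ratio of 1.36 (0.973 to 1.92). In the A375 library the order was EBP, NSDHL, SQLE, DHCR7, LSS, MSMO1, HSD17B7, TM7SF2 and CYP51A1. There EBP stood 1.74 times above NSDHL (1.59 to 1.92), while SQLE and DHCR7, and LSS and MSMO1, could not be told apart. MSMO1 was thus first of the 9 in one library and 6th in the other. Level and fold share the A375 value, so that low genes with high folds are in part the same number seen from both sides.

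Against all genes past the filter, the 5 genes at 84.8 FPKM or more had levels above those of 95.8% to 96.6% of genes in the A375-VR library. In the A375 library the share below them ran from 45.3% for MSMO1 to 85.0% for EBP. The FPKM of the 9 genes summed to 514 in the A375-VR library and 88.2 in the A375 library.

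**Figure D3:**
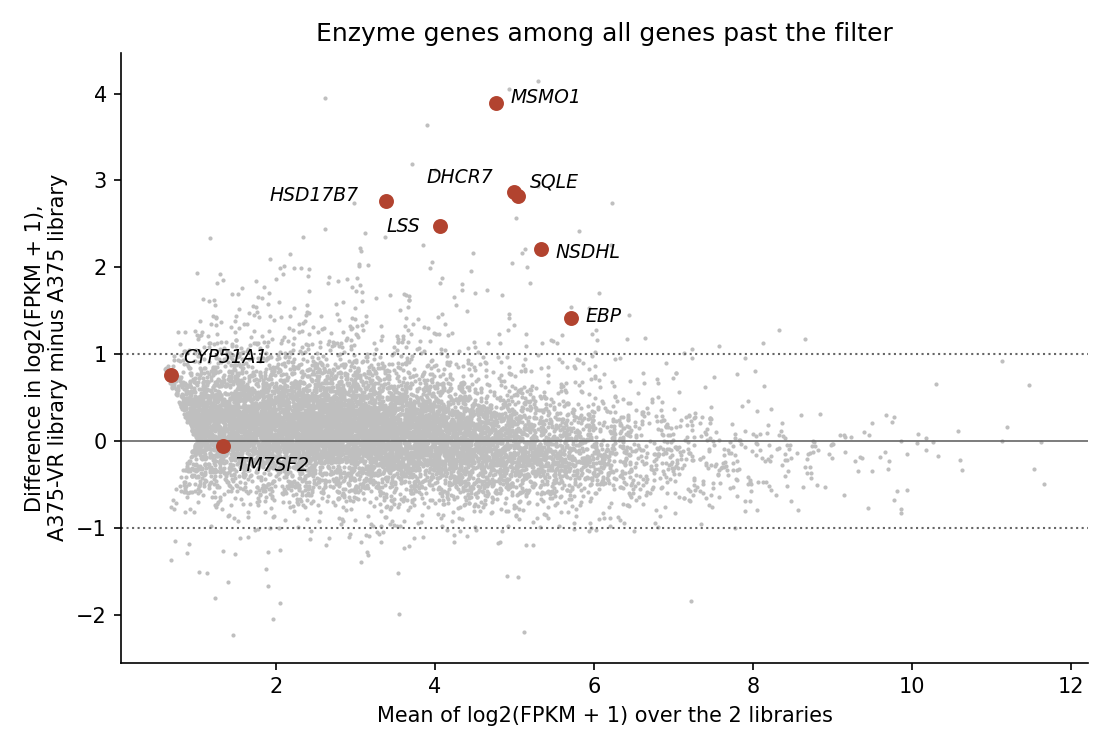
Difference in log2(FPKM + 1), A375-VR library minus A375 library, against the mean of both for the 10761 genes past the filter (grey), with the 9 enzyme genes in red; dotted lines mark 2-fold. SQLE, LSS, MSMO1, NSDHL, HSD17B7 and DHCR7 lie above 2, EBP lies at 1.42, CYP51A1 lies at 0.76, above 93.3% of all genes, and TM7SF2 lies at -0.06, above 34.1%.

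Sequences before the start of 4 genes are shown because they hold the extremes of the set: MSMO1, with the largest fold, NSDHL, with the most CCAAT letters, and CYP51A1 and TM7SF2, the genes that were not called. Each is the 250 bases before the RefSeq start on GRCh38.p14, read 5′ to 3′ on the strand of the gene, with the letters of 3 motifs searched on both strands in capitals: CCAAT, the box bound by NF-Y, GGGCGG, the GC box bound by Sp1, and TCACNCCA, a core of the sterol regulatory element. The windows are chr4:165327419-165327668 on the plus strand for MSMO1, chrX:152830813-152831062 on the plus strand for NSDHL, chr7:92134478-92134727 on the minus strand for CYP51A1 and chr11:65111622-65111871 on the plus strand for TM7SF2.
MSMO1: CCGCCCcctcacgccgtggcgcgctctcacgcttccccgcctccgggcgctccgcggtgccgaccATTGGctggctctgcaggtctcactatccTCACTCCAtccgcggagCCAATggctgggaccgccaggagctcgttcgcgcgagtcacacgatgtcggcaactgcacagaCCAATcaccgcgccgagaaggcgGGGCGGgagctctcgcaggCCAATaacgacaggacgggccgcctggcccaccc
NSDHL: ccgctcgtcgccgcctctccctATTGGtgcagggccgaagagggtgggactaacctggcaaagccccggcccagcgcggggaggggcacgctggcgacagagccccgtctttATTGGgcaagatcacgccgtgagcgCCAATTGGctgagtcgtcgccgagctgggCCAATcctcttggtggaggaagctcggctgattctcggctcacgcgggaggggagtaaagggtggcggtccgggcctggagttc
CYP51A1: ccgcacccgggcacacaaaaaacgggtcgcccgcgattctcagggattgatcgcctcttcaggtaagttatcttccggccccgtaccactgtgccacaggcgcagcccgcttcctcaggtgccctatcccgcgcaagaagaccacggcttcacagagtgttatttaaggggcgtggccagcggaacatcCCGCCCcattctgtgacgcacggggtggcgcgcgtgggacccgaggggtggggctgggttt
TM7SF2: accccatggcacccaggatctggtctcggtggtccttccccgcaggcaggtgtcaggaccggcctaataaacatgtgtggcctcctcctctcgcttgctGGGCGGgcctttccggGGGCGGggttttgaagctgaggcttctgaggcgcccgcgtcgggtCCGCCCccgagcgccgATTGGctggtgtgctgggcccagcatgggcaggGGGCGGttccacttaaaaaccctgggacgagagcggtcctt

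A promoter was given for 8 of the 9 genes, all but SQLE. CCAAT letters were found in 7 of the 8, against 33.0% of 27305 promoters of the same length and 35.8% of the 8665 whose genes passed the filter. MSMO1 held 4 such boxes, NSDHL 5, EBP 3, DHCR7 2 and LSS, HSD17B7 and TM7SF2 1 each, and CYP51A1 held none. In NSDHL a pair of them overlap on opposite strands. At least 2 boxes were found in 4 of the 8, against 13.4% of the promoters whose genes passed. GC boxes were found in 7 of the 8, against 42.3% of all promoters and 69.2% of those whose genes passed, so that this share lies near that of expressed genes. NSDHL had no GC box and LSS had 6. The sterol element core was found in MSMO1 alone, from 156 to 149 bases before the start, against 3.18% of all promoters and 2.6% of those whose genes passed. The E-box CACGTG was found in none of the 8, against 6.49% of all promoters and 9.07% of those whose genes passed. With 8 promoters, these low counts say nothing particular of the genes. DHCR7 has a further listed start, whose window held none of these letters. TM7SF2, which did not differ, thus held both a CCAAT box and 4 GC boxes. A match is a run of letters and not a bound site, and known sterol elements vary more than the core that was searched.

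**Figure D4:**
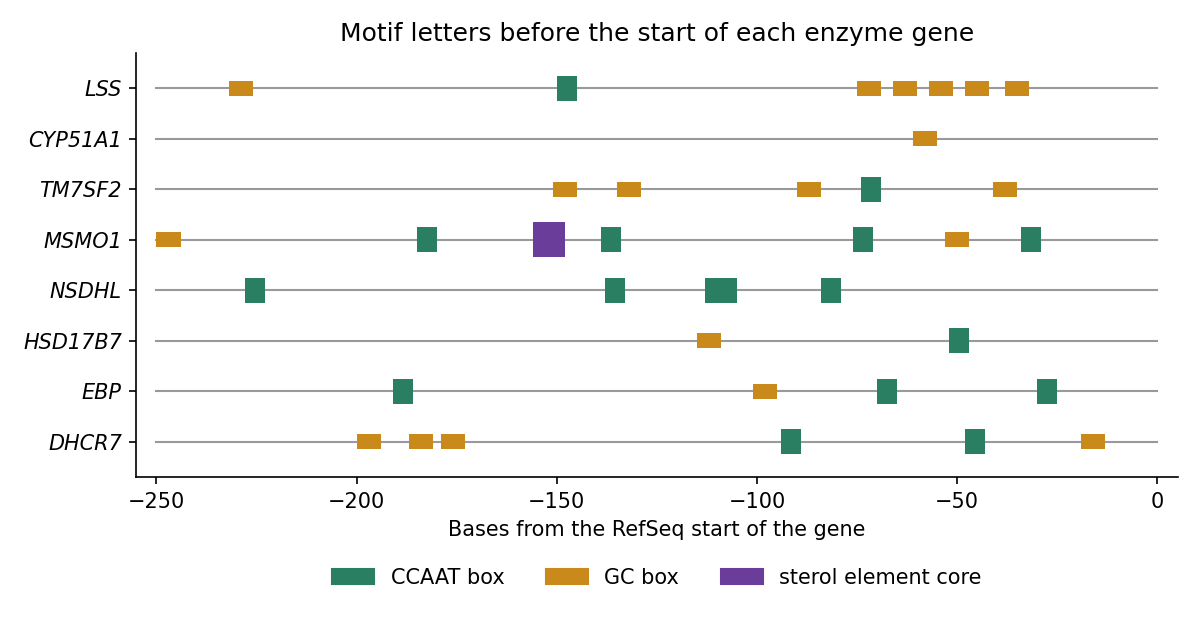
Positions of CCAAT boxes (green), GC boxes (orange) and the sterol element core (purple), on either strand, in the 250 bases before the RefSeq start of 8 enzyme genes; the horizontal axis is distance from the start in bases. NSDHL shows 5 CCAAT boxes, MSMO1 shows 4 beside the only sterol element core, and CYP51A1 shows a single GC box.

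The enzymes upstream of squalene were mostly higher too. Of the 10 genes from acetyl-CoA to squalene that passed, the A375-VR library was higher by 2-fold or more in 8 and lower in none, and the median difference was 2.38. Among all genes past the filter, 3.14% were called upward and 0.613% downward. HMGCS1, which makes HMG-CoA, had 165 FPKM in the A375-VR library and 8.37 in the A375 library. MVD, the decarboxylase of the mevalonate branch, had 46.3 FPKM in the A375-VR library and 4.45 in the A375 library, and the isomerase gene IDI1 had 78.2 FPKM in the A375-VR library and 12.4 in the A375 library. Of 8 other late sterol genes, 3 were 2-fold higher, with a median of 0.65. Besides ERG28 and SC5D, FAXDC2, a relative of the sterol oxidases, had 1.52 FPKM in the A375-VR library and 0.358 in the A375 library. The fold of FAXDC2 was 4.24 (2.66 to 7.03), but it was not called, because the pseudocount brought its difference to 0.89. All of these lists were chosen with earlier results of these data known.

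Of 8 redox partners that feed electrons to the pathway, none was 2-fold apart, with a median difference of 0.27. With 3.14% of all genes called upward and 0.613% downward, no call among 8 genes is near the background and says nothing particular of them. POR, the reductase that serves both SQLE and CYP51A1, had 14.3 FPKM in the A375-VR library and 8.55 in the A375 library, a fold of 1.68 (1.54 to 1.82). CYB5B, a cytochrome b5, had 42.8 FPKM in the A375-VR library and 28.3 in the A375 library, and the reductase gene CYB5R2 had 1.54 FPKM in the A375-VR library and 0.986 in the A375 library.

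Of 7 genes of SREBP processing, 2 were called higher and the median was 0.44. Over all genes, 3.14% were called upward and 0.613% downward. SREBF2, which encodes SREBP2, had 40.1 FPKM in the A375-VR library and 11.6 in the A375 library, a fold of 3.45 (3.26 to 3.66). INSIG1, which holds SREBP in the endoplasmic reticulum and is itself an SREBP target, had 124 FPKM in the A375-VR library and 6.54 in the A375 library, and its relative INSIG2 had 4.90 FPKM in the A375-VR library and 2.87 in the A375 library. Of 9 genes of protein degradation at the endoplasmic reticulum, none was 2-fold apart, again near the background, with a median of 0.18. MARCH6, the ubiquitin ligase that marks SQLE for degradation and was named after its values were seen, had 13.1 FPKM in the A375-VR library and 10.8 in the A375 library. The ligase gene SYVN1 had a fold of 1.46 (1.28 to 1.67), RNF139 had 20.3 FPKM in the A375-VR library and 14.8 in the A375 library, and the conjugating enzyme UBE2J2 had 17.3 FPKM in the A375-VR library and 23.8 in the A375 library.

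Genes of sterol uptake and efflux were described in the same way, beside the 3.14% of all genes called upward and the 0.613% called downward. Of 7 uptake and transport genes past the filter, 2 were called 2-fold higher, with a median of 0.94. Rescaling to a common FPKM sum, where the pseudocount weighs less, made this count 4. NPC1 and LIPA had plain folds of 2.14 (1.96 to 2.35) and 2.06 (1.91 to 2.23). Their log2(FPKM + 1) differences, 0.94 and 0.98, lay below the 2-fold line because of the pseudocount. STARD4, a carrier of cholesterol between membranes, had 19.4 FPKM in the A375-VR library and 2.05 in the A375 library. LIPA, the lysosomal lipase that frees cholesterol from its esters, had 23.9 FPKM in the A375-VR library and 11.6 in the A375 library, and NPC1, which exports it from lysosomes, had 8.67 FPKM in the A375-VR library and 4.04 in the A375 library. Of 6 genes of efflux, esterification and the oxysterol receptor LXR past the filter, APOE was the one called, with 4.66 FPKM in the A375-VR library and 1.10 in the A375 library. MYLIP, an LXR target that degrades lipoprotein receptors, had 1.34 FPKM in the A375-VR library and 2.87 in the A375 library. Its plain fold was 0.468 (0.346 to 0.628), but its log2(FPKM + 1) difference, -0.72, missed the 2-fold line because of the pseudocount. The oxysterol-forming enzyme CYP27A1 had 3.53 FPKM in the A375-VR library and 2.03 in the A375 library.

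Of 12 genes of the branches that leave the mevalonate pathway before squalene, none was called in either direction, and their median was -0.16. Against the 3.14% and 0.613% of all genes called upward and downward, this count too is near the background. FNTB, a subunit of protein farnesyltransferase, had 3.93 FPKM in the A375-VR library and 2.29 in the A375 library. PDSS1, which makes the side chain of coenzyme Q, had 10.1 FPKM in the A375-VR library and 15.6 in the A375 library, and RABGGTA, a subunit of the Rab prenyltransferase, had 9.09 FPKM in the A375-VR library and 6.24 in the A375 library. The difference between this list and the 9 genes was not tested.

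**Figure D5:**
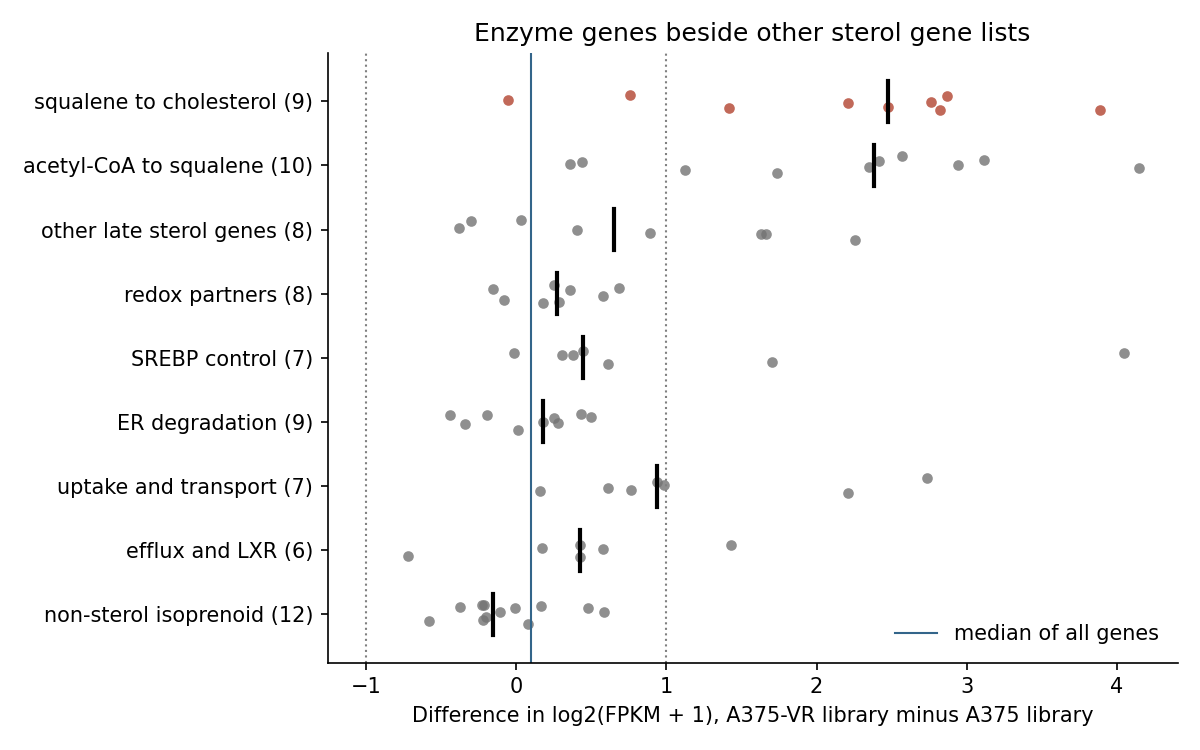
Difference in log2(FPKM + 1), A375-VR library minus A375 library, for genes past the filter in 9 lists (number of genes in brackets); each point is a gene, black bars are list medians, the blue line is the median of all genes (0.10) and dotted lines mark 2-fold. The enzyme genes (red, median 2.48) and those from acetyl-CoA to squalene (median 2.38) lie furthest right, and the non-sterol isoprenoid list lies at -0.16.

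Outside these lists, the 5 genes of at least 5 FPKM whose difference lay nearest to the median of the 9 were PDK4, AKR1C2, SHISA2, GPR153 and FGFBP1. Their differences ran from 2.22 for FGFBP1 to 2.44 for PDK4. PDK4, a kinase that shuts down pyruvate dehydrogenase, had 13.3 FPKM in the A375-VR library and 1.64 in the A375 library. AKR1C2, a reductase of steroids, had 19.0 FPKM in the A375-VR library and 2.79 in the A375 library, and has close paralogs. Likeness here rests on a single difference between 2 libraries.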

How the data were processed

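The authors deposited 1 FPKM value per gene and library, zeros kept, per the file names. The series design text names a stranded TruSeq mRNA kit, a HiSeq 2000 with 150 bp paired ends, and TopHat 1.3.3 as aligner, with GRCh37 as genome. How reads were counted, on which gene models and with which strand setting, is not given in the sources used here. Because FPKM is scaled within a library, abundant genes that differ shift all others.

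From these values log2(FPKM + 1) was taken in Python 3.11.15, and differences are the A375-VR library minus the A375 library over genes with at least 1 FPKM in a library. Folds are ratios of FPKM with no pseudocount. Since 1 library stood for each group, no test was run.

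Whole reads were recovered from the ratio of low values. That ratio gives the totals up to a common factor. Of 12 multiples tried, the one used made the lengths of 426 of 3000 genes equal GENCODE 44 exon lengths, against 300 for the next. Reads came out whole by construction, which is no evidence for them. Exact Clopper-Pearson intervals (95%) use these reads. Copies were sought with blastn 2.17.0 (at least 150 bases at 90% identity). The 2-fold call and the intervals were tried on simulated reads that took the recovered lengths and totals as given. The recovery of reads and the search for copies were not tested in this way.

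Members, lists and tests were chosen with earlier results of these data known. The 9 genes were named, then up to 3 genes of each list with the largest difference, the relatives of TM7SF2 and EBP, and the 5 nearest genes. Some genes the rule takes are not reported here. Alternatives were other pseudocounts, filters and scalings.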

Additional observations from a re-analysis of the deposited data

How the results depend on the processing

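No paired analysis was possible because each group has 1 library and the result comes from no test. MSMO1, DHCR7, SQLE, HSD17B7, LSS, NSDHL and EBP were at least 2-fold higher under every planned setting, and CYP51A1 joined them with a pseudocount of 0.1 and after rescaling to a common FPKM sum, for a count of 8. Rescaling raised the values of both libraries from FPKM sums of 260897 in the A375-VR library and 265149 in the A375 library. The pseudocount stayed at 1 and so weighed less, which makes this setting also a change of pseudocount. The median of the 9 genes, 2.48, was 2.64 with the pseudocount of 0.1, 2.36 with median ratio scaling, 2.36 with the trimmed mean of log ratios and 2.63 after rescaling, and it was 2.76 over the 7 genes left by a filter of 5 FPKM. Without CYP51A1, HSD17B7 and EBP, which share over 10% of exon bases on their strand or have a copy of at least 500 bases, 5 of 6 were called and the median was 2.65. Without MSMO1 as well, 4 of 5 were called and the median was 2.48. Both alternatives were chosen after seeing the data. Over all genes 338 were 2-fold higher and 66 lower, so 83.7% of calls were upward. The counts were 689 and 140 with the pseudocount of 0.1 and 624 and 104 after rescaling. Genes 2-fold lower numbered 101 with median ratio scaling and 101 with the trimmed mean, where 73.0% and 72.9% of calls were upward. For these shifts the cause was not tested. Among single genes, 41 of the values under other settings moved by no more than the counting error and 11 moved by more, with no called gene turning sign. Settings that change only the filter cannot move the value of a single gene. Part of the 41 was thus fixed in advance and says nothing of stability. Depth limits CYP51A1 and TM7SF2 most.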

Other observations

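CYP51A1 had the lowest listed value of the 9 genes in both libraries, at 1.09 FPKM in the A375-VR library and 0.235 in the A375 library. In the A375-VR library it could not be told from TM7SF2 by counting error (TM7SF2 over CYP51A1, 1.36, 0.973 to 1.92). CYP51A1 was this low although its enzyme acts between those of LSS and MSMO1. LSS had 38.6 FPKM in the A375-VR library and 6.12 in the A375 library, and MSMO1 had 104 in the A375-VR library and 6.10 in the A375 library. The fold of CYP51A1, 4.62, lay within the range of the called genes, from 2.73 for EBP to 17.1 for MSMO1. CYP51A1 passed the filter only through its A375-VR value, which favours a high fold, so this does not place it with them. The same-strand genes that share exons with CYP51A1 have no value of their own here. LRRD1, the next gene on the same strand, was listed at 0.0273 FPKM in the A375-VR library and 0 in the A375 library. It was in none of the lists and was picked by hand, and its bearing on the value of CYP51A1 was not tested.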
